A study of Mus musculus with 7 samples.

Results

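Classical and giant cadherin superfamily genes, 8 in number, were followed through the Srsf3 binding sites of palatal mesenchyme cells. They were Fat1, Fat3, Fat4, Dchs1, Celsr1, Celsr2, Cdh2 and Cdh11, and a peak was taken as theirs when the deposited peak list gave it that gene name. Of these 8 genes, 3 held a peak in either list. They held 13 of 6396 distinct peaks in the untreated list (0.203%) and 8 of 8384 in the PDGF-AA list (0.0954%), 21 of 14780 in all. None of these intervals was repeated under another gene, and the gene in the caller's own peak name was the same for every one of them.

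Srsf3 is an SR protein, an RNA-binding protein of the splicing machinery with further roles in export and processing of mRNA. Its binding sites were mapped by eCLIP, in which RNA crosslinked to a protein by ultraviolet light is recovered with an antibody and sequenced, in iMEPM cells, an immortalized mouse embryonic palatal mesenchyme line that according to the study's methods came from a Cdkn2a-/- embryo. All cells were serum starved, and PDGF-AA, which activates the receptor tyrosine kinase PDGFRα, was then withheld or added at 10 ng/mL for 1 hour, so that the comparison asks where Srsf3 binds with and without the ligand. The labels describe 7 libraries: 2 untreated Srsf3 immunoprecipitations, 1 PDGF-AA Srsf3 immunoprecipitation, and for each condition 1 input and 1 IgG immunoprecipitation. Peaks were called once per condition, and the lists hold no score or read count. By its title the Srsf3 library with PDGF-AA is replicate 2, and the study's methods speak of biological duplicates. The read counts in those methods, however, list 2 untreated Srsf3 immunoprecipitations and only 1 with PDGF-AA. Counts are therefore given without a test, the depth behind each peak is unknown, and the effect of ligand cannot be told apart from that of library number and depth. The labelled cell type could not be checked against marker genes, because peak lists carry no expression values.

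Cadherins are cell surface proteins whose extracellular repeats bind calcium and, in most of the family, other cadherins on neighbouring cells. The classical type, to which Cdh2 (N-cadherin) and Cdh11 (OB-cadherin, typical of mesenchyme) belong, passes the membrane a single time and binds catenins, which link it to actin. The giant members carry long arrays of cadherin repeats: Fat1, Fat3 and Fat4 are the vertebrate relatives of the Drosophila Fat and Fat-like proteins, Dchs1 is the Dachsous relative and binding partner of Fat4, and Celsr1 and Celsr2 are relatives of Drosophila Flamingo, with a receptor portion that crosses the membrane several times, and act in planar cell polarity. Much of each repeat array is encoded by unusually large exons. An exon with coding sequence was called giant here from 1000 nt of full length, UTR included, unless coding length is named.

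Fat1 was the cadherin gene with most of the peaks, with 11 untreated and 5 PDGF-AA peaks. Cdh2 had 1 peak in each list and Cdh11 had 1 untreated and 2 PDGF-AA peaks. Fat3, Fat4, Dchs1, Celsr1 and Celsr2 had none in either list. Among all protein-coding genes, 24.3% had a peak in at least 1 list, and among those with a coding sequence of 8000 nt or more, 46.6% (109 of 234) did. Of the 8 cadherins, 6 have a coding sequence of that length, and Fat1 was the only one of the 6 with a peak. In these counts the bound members were the gene of 13935 coding nt and the 2 shortest ones, Cdh2 with 2718 and Cdh11 with 2388 coding nt.

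**Figure D1:**
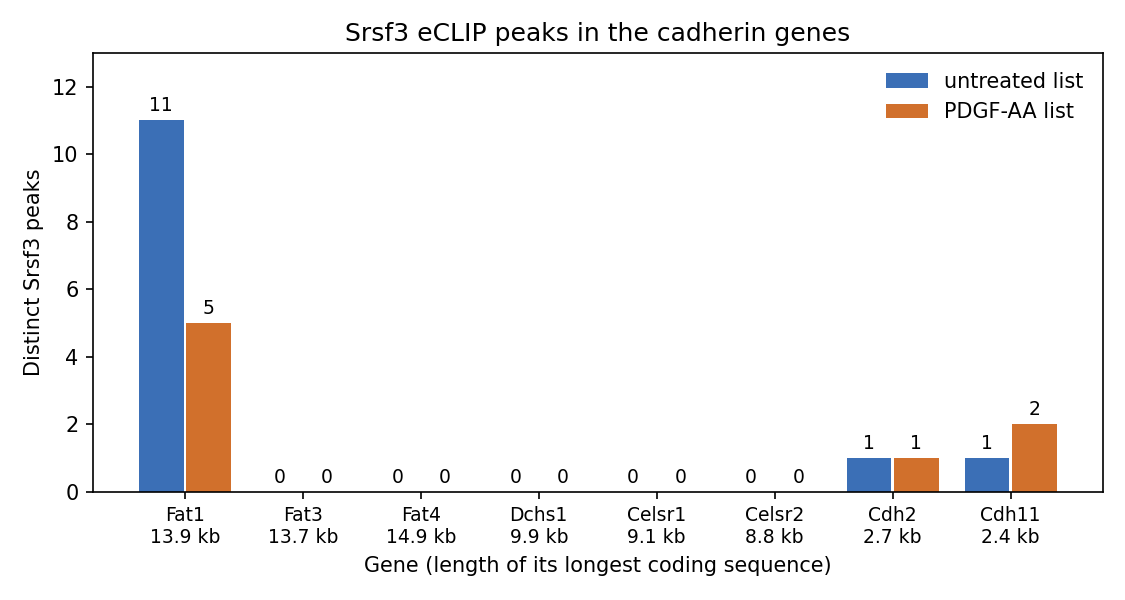
Distinct Srsf3 peaks (vertical axis, number of peaks) in each of the 8 genes (horizontal axis, with the length of the longest coding sequence), with the untreated list in blue and the PDGF-AA list in orange. Fat1 stands at 11 and 5 peaks, Cdh2 at 1 and 1, Cdh11 at 1 and 2, and the other genes at 0.

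The 5 genes without a peak offered long targets. Together their longest coding sequences hold 56340 nt, of which 31712 nt lie in 13 giant exons. Some of these are giant through their UTR: Fat3 exon 26, Celsr1 exon 35 and Celsr2 exon 34 hold 620, 7 and 25 coding nt. Fat4 has the longest coding sequence of all members, 14943 nt in 17 exons, with giant exons 1, 9 and 17 of 5195, 4350 and 3005 nt that hold 76.2% of it. Fat3 has 13665 coding nt and giant exons 2, 10 and 26 of 3306, 4074 and 5433 nt, of which the first pair is close in length to the giant exons of Fat1. Dchs1 has 9873 coding nt and 3 giant exons with 54.8% of it, while Celsr1 and Celsr2 open with coding exons of 4056 and 3897 nt. No peak of any gene name lay on their strand within the spans of these 5 genes in either list. A peak list cannot tell RNA that was absent or scarce from RNA that was present and not bound, and no expression values were used here.

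The pair of overlapping peaks with the largest overlap in each gene was chosen for display, outside the Cdh2 locus. In Fat1 it lay in giant exon 10, where the untreated peak chr8:45476912-45476981 (GRCm39, plus strand, 70 nt) sat wholly inside the PDGF-AA peak chr8:45476813-45477048 (236 nt). In Cdh11 it lay in exon 7, where the untreated peak chr8:103391355-103391406 (minus strand, 52 nt) sat inside the PDGF-AA peak chr8:103391355-103391410 (56 nt). All are coding, the sequences are given 5′ to 3′ on the sense strand, and capitals mark the nucleotides that both lists covered.
Fat1 exon 10, untreated: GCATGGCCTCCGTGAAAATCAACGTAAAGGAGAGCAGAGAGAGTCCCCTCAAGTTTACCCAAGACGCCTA
Fat1 exon 10, PDGF-AA: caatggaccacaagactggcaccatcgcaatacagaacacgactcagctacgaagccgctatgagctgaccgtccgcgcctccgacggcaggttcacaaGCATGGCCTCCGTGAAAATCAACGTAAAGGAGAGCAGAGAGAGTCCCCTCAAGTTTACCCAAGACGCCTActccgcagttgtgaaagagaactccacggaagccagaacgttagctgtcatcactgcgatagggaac
Cdh11 exon 7, untreated: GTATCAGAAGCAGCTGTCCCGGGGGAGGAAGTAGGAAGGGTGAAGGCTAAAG
Cdh11 exon 7, PDGF-AA: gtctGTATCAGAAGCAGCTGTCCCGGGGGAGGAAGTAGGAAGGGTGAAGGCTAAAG
The PDGF-AA peak in Fat1 exon 10 was the 8th widest of its list, reaching to both sides of the untreated peak, whereas the Cdh11 pair shared its end and differed by a few nucleotides at the 5′ side.

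Fat1 was among the genes with the most untreated peaks. At least 1 peak was listed for 5368 genes, of which 15 had more untreated peaks than Fat1 and 129 had more PDGF-AA peaks. An excess of untreated peaks larger than that of Fat1 was found in 4 genes, and 3 genes, Fat1 included, shared its excess of 6. More untreated than PDGF-AA peaks were found in 26.7% of all genes with a peak, and more PDGF-AA than untreated peaks in 50.6%, so the direction of Fat1 was the less common one and that of Cdh11 the more common. Among the 109 bound genes with a coding sequence of 8000 nt or more, the median was 1 untreated and 3 PDGF-AA peaks, 31 genes had more untreated peaks, and Fat1 alone had an untreated excess of 6 or more. That line is the value of Fat1 itself. With peaks within 50 nt merged, its PDGF-AA minus untreated difference was -5 and not -6, and no ranks are given for merged peaks. The Fat1 peaks covered 566 nt without and 473 nt with PDGF-AA, a smaller difference than in their number, because the PDGF-AA list held the 236-nt peak.

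Every Fat1 peak was coding. The transcript with the longest coding sequence has 29 exons, in the numbering used here, and 2 giant exons: exon 1 of 3268 nt and exon 10 of 4068 nt, with 52.6% of the coding sequence between them. Untreated peaks lay in 6 exons (1, 3, 9, 10, 19 and 25) and PDGF-AA peaks in 4 of those 6 (3, 10, 19 and 25), which left 23 exons without a peak. In the Ensembl canonical transcript, exons 1 and 3 are numbered 2 and 4, and the other 4 keep their numbers. The map of the coding sequence shows that the lists differed most at its 5′ end, where exon 1 held 5 untreated peaks and no PDGF-AA peak.

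**Figure D2:**
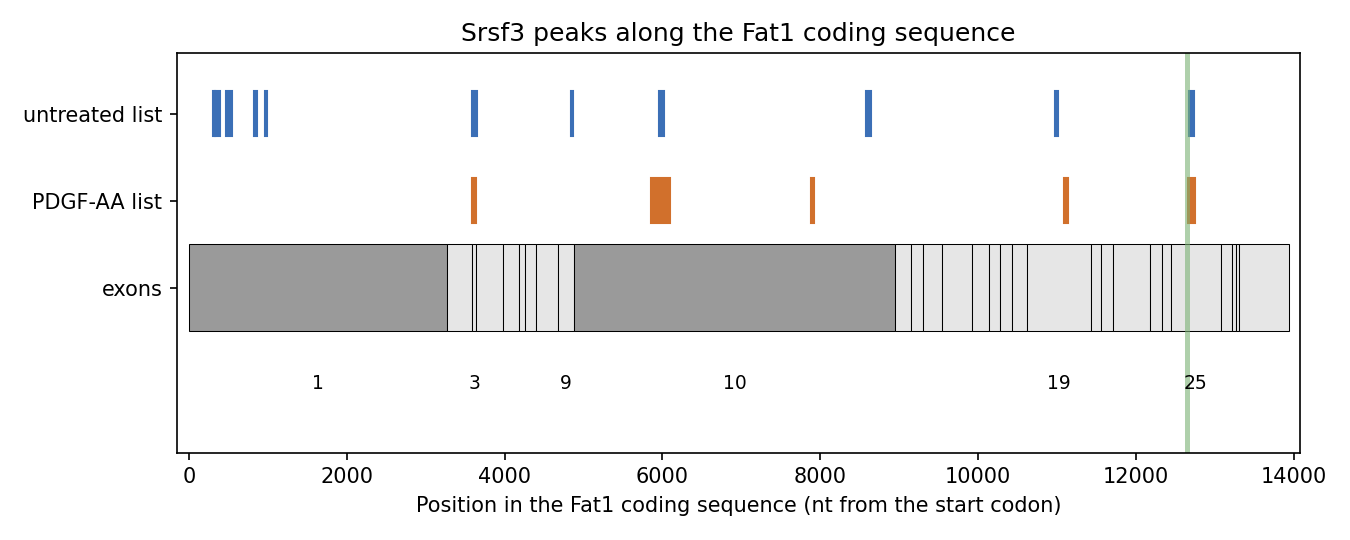
Srsf3 peaks of the untreated list (blue) and the PDGF-AA list (orange) along the Fat1 coding sequence (horizontal axis, nt from the start codon), above its exons, with the 2 giant exons in dark grey, numbers under the 6 exons with a peak, and the most hydrophobic stretch of 21 codons in green. The first blue block in exon 1 is 2 peaks with 1 nt between them; exon 1 holds 5 untreated and 0 PDGF-AA peaks, and exon 25 holds 1 of each over the end of the hydrophobic stretch.

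The 5 untreated peaks of exon 1 lay within 688 nt, between codons 101 and 330 of 4645, and covered 233 nt. Their intervals on the plus strand were chr8:45403552-45403582, chr8:45403584-45403650, chr8:45403723-45403792, chr8:45404079-45404116 and chr8:45404213-45404239, and the nearest PDGF-AA peak was 56040 nt or more from each. They are shown because they make up most of the difference between the lists in Fat1, a choice made after their values were seen. No capitals are used, since none of the hexamers searched below occurred in them.
Peak 1, codons 101 to 111: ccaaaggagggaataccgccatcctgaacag
Peak 2, codons 112 to 134: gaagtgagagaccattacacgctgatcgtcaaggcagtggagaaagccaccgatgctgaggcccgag
Peak 3, codons 158 to 181: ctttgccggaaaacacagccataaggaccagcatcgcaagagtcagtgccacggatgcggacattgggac
Peak 4, codons 277 to 289: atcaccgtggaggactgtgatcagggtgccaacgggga
Peak 5, codons 321 to 330: cggggccgtcgactgggacagccatcc
Exon 1 with these exact boundaries is in 1 of 4 coding transcripts, while all 4 hold all 5 peaks in 1 uninterrupted coding stretch. The widths of the peaks were 31, 67, 70, 38 and 27 nt. Their GC content was 54.8%, 56.7%, 55.7%, 60.5% and 74.1%, each above the 51.3% of the exon, and the last was the richest in GC of all coding peaks of the 8 genes. Peaks 1 and 2 had only 1 nt between them, and counting them as 1 site would leave 4.

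Giant exon 10 was bound in both lists, with 2 peaks in each. Beside the overlapping pair shown above (codons 1986 to 2009 untreated and 1953 to 2031 with PDGF-AA), the untreated list held chr8:45479535-45479600 (codons 2860 to 2882, 66 nt) and the PDGF-AA list chr8:45478835-45478880 (codons 2627 to 2642, 46 nt). These last peaks were 654 nt apart. So 7 of 11 untreated peaks of Fat1 (63.6%) lay in giant exons, beside 2 of 5 PDGF-AA peaks (40%). Per kb of exon, Fat1 had 0.954 untreated peaks in giant exons and 0.606 in its other exons, and 0.273 and 0.454 PDGF-AA peaks. The ratio of giant to other exons was thus 1.57 untreated and 0.60 with PDGF-AA, from 7, 4, 2 and 3 peaks. When exons from 500 nt were counted as giant, which moved the peaks of exons 19 and 25 to that class, the PDGF-AA ratio turned to 1.93, so its direction depends on where the line is drawn.

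**Figure D3:**
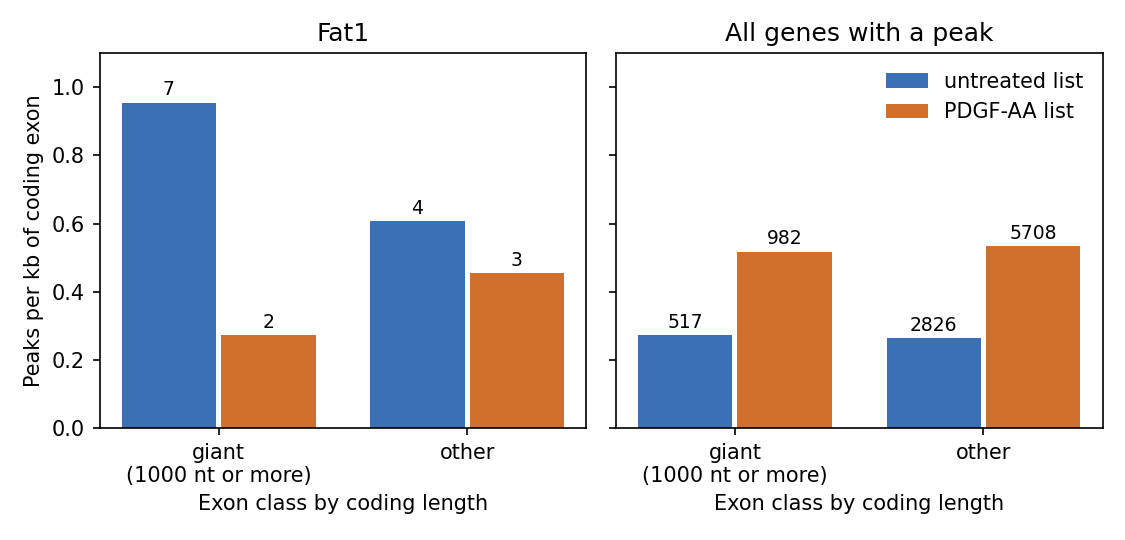
Peaks per kb of coding exon (vertical axis) in exons with 1000 coding nt or more and in all other coding exons, for Fat1 (left) and for all genes with a peak in either list (right), with the untreated list in blue, the PDGF-AA list in orange and the number of peaks above each bar. Fat1 had 0.954 untreated and 0.273 PDGF-AA peaks per kb in giant exons, while over all genes with a peak the values were 0.273 and 0.518.

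With exons classed by coding length, coding exon sequence of all genes with a peak carried 0.273 untreated peaks per kb in giant exons. Its other exons carried 0.265, and the PDGF-AA values were 0.518 and 0.534. Both exon classes there had more PDGF-AA than untreated peaks, while Fat1 had fewer PDGF-AA peaks in each class. The shares that follow class exons by full length. Of the coding peaks of the 8 genes, 7 of 12 untreated (58.3%, 95% Wilson interval 32.0 to 80.7%) and 3 of 8 PDGF-AA (37.5%, 13.7 to 69.4%) lay in giant exons, beside 19.2% and 21.2% of all coding peaks. With giant exons counted from 500 nt the shares were 75% and 62.5%, closer to each other. The intervals overlap, they cover counting error only, and peaks of the same gene share their transcript. All of these giant-exon peaks but the Cdh11 peak in exon 13 were in Fat1. By coding length that exon, with 494 coding nt, is not giant, which leaves 2 PDGF-AA peaks of the 8 genes in giant exons. By coding length, giant exons hold 38396 and other exons 36985 coding nt of the 8 genes. Over all genes with a peak they hold 1896878 and 10683591, so giant exons make up a larger part of the members' coding sequence.

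The smallest bound exon of Fat1 was exon 3, of 62 nt, a length that is not a multiple of 3. The untreated peak chr8:45460280-45460341 (62 nt, codons 1195 to 1215) covered 98.4% of it as deposited, and 100% when every interval was moved back by 1 nt. The PDGF-AA peak chr8:45460280-45460334 (55 nt) started at the same nucleotide and covered 88.7%. The exon is present with these boundaries in 4 of 4 coding transcripts of the annotation. The pair is shown for covering most of an exon, chosen after its values were seen, with capitals on the part that both lists covered.
Fat1 exon 3, untreated: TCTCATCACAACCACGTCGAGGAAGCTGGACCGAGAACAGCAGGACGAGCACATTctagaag
Fat1 exon 3, PDGF-AA: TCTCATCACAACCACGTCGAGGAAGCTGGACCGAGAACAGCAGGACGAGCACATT
The untreated peak ran on over the final nucleotides of the exon, which the PDGF-AA peak left out.

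Exon 25 of Fat1 (632 nt) held the overlapping pair with the most GA hexamers. The motifs searched, on the sense strand and with overlapping copies counted, were CACACA and a group of GA hexamers. The latter comprised GAAGAA, its shifted forms AGAAGA as well as AAGAAG, and a relative ending in a CG pair, GAAGCG. The untreated peak chr8:45497192-45497247 (56 nt, codons 4226 to 4244) and the PDGF-AA peak chr8:45497181-45497262 (82 nt, codons 4222 to 4249) each held 6 copies, all in the stretch of 12 nt in capitals below. In exon 19 (802 nt), the untreated peak chr8:45490058-45490100 (43 nt, codons 3657 to 3671) had none and the PDGF-AA peak chr8:45490174-45490227 (54 nt, codons 3695 to 3713), 73 nt further on, had 1 copy, also in capitals.
Fat1 exon 25, untreated: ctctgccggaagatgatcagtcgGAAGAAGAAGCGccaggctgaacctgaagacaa
Fat1 exon 25, PDGF-AA: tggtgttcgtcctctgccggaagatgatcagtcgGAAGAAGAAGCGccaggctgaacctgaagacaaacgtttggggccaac
Fat1 exon 19, untreated: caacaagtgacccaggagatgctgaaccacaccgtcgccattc
Fat1 exon 19, PDGF-AA: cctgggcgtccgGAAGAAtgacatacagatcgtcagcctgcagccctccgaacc
These exons were chosen for display after their values were seen. The exon 25 peaks straddle the end of the most hydrophobic stretch of 21 codons in the Fat1 coding sequence (codons 4207 to 4227, mean Kyte-Doolittle value 3.12), which in a single-pass cadherin is the candidate membrane segment. The GA-rich stretch follows it. All other Fat1 peaks lay upstream of that stretch, in sequence for the extracellular part.

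Outside those exons no member peak held a GA hexamer. Of the member peaks, 1 of 13 untreated and 2 of 8 PDGF-AA peaks held at least 1 copy, all in Fat1, beside 19% of all untreated and 34.3% of all PDGF-AA peaks, and with so few peaks no difference from those shares can be read. CACACA occurred in 1 untreated and 0 PDGF-AA member peaks, beside 19.9% and 2.72% of all peaks.

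In Cdh11 both lists shared the exon 7 site shown above, at codons 277 to 294 of 796 untreated and 275 to 294 with PDGF-AA. Exon 7 has 188 nt and is part of 19 of 19 coding transcripts. The second PDGF-AA peak, chr8:103361280-103361347 (68 nt, minus strand), lay in the coding portion of the last exon, exon 13 of 2717 nt with 494 coding nt, which has these boundaries in 18 of 19 coding transcripts. It covered codons 664 to 686, 24 codons after the most hydrophobic stretch (codons 620 to 640), in sequence for the catenin-binding side of the protein. The nearest untreated peak was 30007 nt away. Its sequence is shown as the PDGF-AA site of Cdh11 without an untreated counterpart, with no capitals because no searched hexamer occurred in it.
Cdh11 exon 13, PDGF-AA: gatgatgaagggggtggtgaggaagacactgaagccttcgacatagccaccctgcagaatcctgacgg
This peak had 55.9% GC in an exon of 35.7%, the exon lowest in GC among those with a member peak. That value covers all 2717 nt of the exon, of which only 494 are coding, so it is mostly that of UTR.

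GC content was higher under most coding peaks than in the exon around them, taken at full length with any UTR. Among the coding peaks of the 8 genes, 9 of 12 untreated and 8 of 8 PDGF-AA peaks were richer in GC than their exon, beside 69.1% and 64.8% of all coding peaks. The median excess over the exon was 3.18 percentage points in the untreated and 7.33 in the PDGF-AA list, beside 2.86 and 2.14 over all coding peaks. The median GC content of the member peaks was 55.3% untreated and 55.6% with PDGF-AA, and that of all coding peaks 58.9% and 56.9%. Untreated peaks of Fat1 ranged from 50.0% to 74.1% and its PDGF-AA peaks from 54.2% to 61.1%. The untreated peak of Fat1 exon 3, which as deposited covers 98.4% of the exon, equalled it in GC at 53.2%. The untreated peaks poorer in GC than their exon were those of Fat1 exons 9 and 25, of which exon 9 (chr8:45471034-45471069, 36 nt, codons 1613 to 1624) was the lowest of all at 50.0% in an exon of 54.0%.

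**Figure D4:**
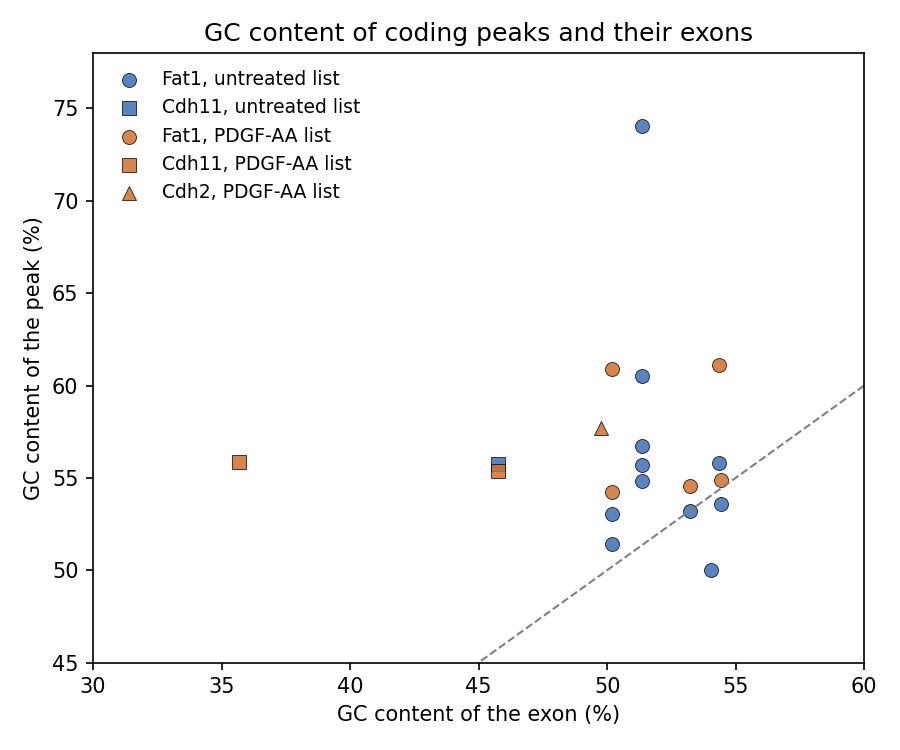
GC content of each coding peak of the 8 genes (vertical axis, percent) against that of its exon (horizontal axis, percent), with circles for Fat1, squares for Cdh11 and a triangle for Cdh2, the untreated list in blue and the PDGF-AA list in orange. The dashed line marks equal values: 9 of 12 untreated and 8 of 8 PDGF-AA peaks lie above it, the highest at 74.1% in Fat1 exon 1 and the farthest left the Cdh11 exon 13 peak at 55.9% in an exon of 35.7%. Exon values include any UTR, which makes up most of Cdh11 exon 13.

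Cdh2 kept its count of 1 peak in each list, at places 95425 nt apart on the minus strand of chromosome 18. The untreated peak, chr18:16878929-16879025 (97 nt), lay in the intron after exon 2, an intron of 124009 nt, 28540 nt past that exon. It held 19 overlapping copies of CACACA and a tandem CA run of 29 nt, and it was the only intron peak among the members. The PDGF-AA peak, chr18:16783478-16783503 (26 nt), lay in coding exon 3 (227 nt) at codons 75 to 84 of 906, with 57.7% GC, and was the narrowest member peak. Leaving out peaks with a CA run of 12 nt or more removed the former, and a minimum width of 30 nt the latter.

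Across the members, 4 of 13 untreated peaks (30.8%, 95% Wilson interval 12.7 to 57.6%) and 4 of 8 PDGF-AA peaks (50%, 21.5 to 78.5%) overlapped a peak of the other list by at least 1 nt on the same strand, beside 38.8% and 29.6% of all peaks. The 4 shared sites were Fat1 exons 3, 10 and 25 and Cdh11 exon 7, and both background shares lay within the intervals. Coding sequence held 12 of 13 untreated peaks (92.3%, 66.7 to 98.6%) and 8 of 8 PDGF-AA peaks (100%, 67.6 to 100%), beside 54.4% and 81.6% of all peaks. The share of all untreated peaks lay below the untreated interval and that of all PDGF-AA peaks inside its own. Peaks of the same gene are not independent, and 11 of the 12 untreated coding peaks were from Fat1. No conclusion about the 8 genes is drawn from these intervals. Widths were alike, with a median of 56 nt in the untreated and 55.5 nt in the PDGF-AA list, beside 48 and 49 nt over all peaks.

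In a chosen list of other cadherin superfamily genes, intron peaks made up most of the untreated sites. The list leaves out the clustered protocadherins, so its counts do not describe the rest of the superfamily. Of its 49 genes, 11 had a peak, beside the 24.3% of all protein-coding genes given above. More untreated peaks were listed for 9 of them and more PDGF-AA peaks for 2, beside 26.7% and 50.6% of all bound genes. Of their 24 untreated peaks 19 were in introns and 4 in coding sequence, and of their 16 PDGF-AA peaks 7 and 9. Over all placed peaks, 2277 of 6308 untreated and 986 of 8283 PDGF-AA peaks were in introns. A tandem CA run of 12 nt or more lay in 9 of the 24 untreated and 2 of the 16 PDGF-AA peaks. Among all peaks, 1084 of 6396 untreated and 99 of 8384 PDGF-AA peaks had such a run. Cdh13 (T-cadherin, held by a lipid anchor and without a cytoplasmic tail) had peaks in introns alone, 5 untreated and 4 with PDGF-AA. The protocadherin genes Pcdh9 (5 and 3) and Pcdh7 (3 and 2) also had mostly intron peaks. Giant exons held 1 of the 4 untreated and 6 of the 9 PDGF-AA coding peaks of these genes, beside 19.2% and 21.2% of all coding peaks. In the 8 cadherins they held 7 of 12 and 3 of 8. How much of the coding sequence of the listed genes lies in giant exons is not given here. Pcdh19 (5 and 4) had 2 and 4 coding peaks, 1 and 3 of them in a giant exon. Clstn1, the calsyntenin 1 gene, had 2 and 1 coding peaks.

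The list of adhesion partners held the catenin genes and genes of other junction proteins, the nectins among them. Of its 14 genes, 11 had a peak, beside 24.3% of all protein-coding genes. More untreated peaks were listed for 4 of them, more PDGF-AA peaks for 4 and equal numbers for 3. The first pair of classes held 26.7% and 50.6% of all bound genes. In this list, 5 of 19 untreated and 17 of 21 PDGF-AA peaks were coding, beside 54.4% and 81.6% of all peaks. Vcl (vinculin, which ties junctions to actin) had 2 untreated peaks, both in introns, and 7 PDGF-AA peaks, all coding. Ctnna1 (α-catenin) had 3 and 4 peaks, all coding, and Ctnnd1 (p120-catenin) 1 and 3. Ctnna2, a second α-catenin gene, had 4 and 1 peaks, all in introns, Afdn (afadin) 2 and 2, and Pkp4 (a p120-catenin relative) 2 and 1.

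The planar polarity and Fat pathway list held a peak in 23 of 26 genes, beside 24.3% of all protein-coding genes. More untreated peaks were listed for 6, more PDGF-AA peaks for 7 and equal numbers for 10. Among all bound genes the first pair of classes held 26.7% and 50.6%. In all there were 36 untreated and 37 PDGF-AA peaks, of which 20 and 32 were coding, beside 54.4% and 81.6% of all peaks. Dlg5, a scaffold gene, had the largest untreated excess of that list, with 5 untreated and 0 PDGF-AA peaks. Scrib, a polarity scaffold gene, leaned the other way with 2 and 6, all coding. Among further planar polarity genes with a total of 3 or more peaks, Prickle1 had 3 and 3 peaks, Dvl1 2 and 2, Dvl3 2 and 2, Fzd6 1 and 2, and Ptk7 2 and 1. Among genes of the Hippo pathway, which Fat cadherins feed into in Drosophila, Yap1 had 1 and 2 peaks, Wwtr1 0 and 3, Stk4 2 and 2, Tead1 4 and 3, and Tead3 2 and 3. Peaks were found in most genes of this list, while Fat4, Dchs1, Celsr1 and Celsr2 themselves had no peak. Members and lists were chosen with earlier results of these data known, so no conclusion is drawn from that contrast.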

How the data were processed

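The authors, according to the study's methods, used cutadapt on the eCLIP reads, collapsed duplicates by molecular identifier, set aside reads of repetitive elements, aligned the remaining ones to GRCm39 with STAR, and ran omniCLIP for peak calls and RCAS for annotation. The submitters' processing notes name cutadapt 1.18 and STAR 2.7.9. The deposited lists hold peak intervals with a gene name (unit: interval, no score, count or p-value), and the mean of replicates or their spread cannot be had from them. Setting repetitive reads aside can cost peaks in repeats. Of 4 deposited lists, the 2 full ones were used. The 2 lists labelled as of a single condition hold none of the member peaks, not even those that overlap no peak of the other full list. The study describes gathering transcripts with a peak in only a single condition, and Fat1, Cdh2 and Cdh11 had peaks in both.

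Intervals listed repeatedly entered the counts once, under the gene name given first. Intervals were set against GRCm39 and GENCODE M39, used as deposited although peak edges lie 1 nt past exon edges. A peak took the region of most of its nucleotides across the transcripts of its gene, and its exon from the transcript with the longest coding sequence. Python 3.11.15, pysam 0.24.0 and SciPy 1.17.1 (Wilson intervals at 95%) were used, and the functions were tested on a simulated gene model. The hydrophobic stretch was the 21-codon window of highest mean hydropathy past the first 60 codons. All 8 members are named, and of the other lists the genes with a total of 3 or more peaks. The members and lists were chosen with earlier results of these data known. No test was made, since each condition has 1 list. Alternatives varied merging of peaks within 50 nt, a width of at least 30 nt, tandem CA runs of 12 nt or more, the overlap rule, the giant exon length, UTR precedence, a shift of 1 nt, an extension of 10 nt, exon length as coding nt only, and counts as shares of the list. The last, and Fat1 alone for the giant exon share, were chosen after seeing the data.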

Additional observations from a re-analysis of the deposited data

How the results depend on the processing

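Of the alternative values computed, 76 stayed in the same direction and within the tolerance for their kind (for shares, the Wilson interval, which is wide with so few peaks), 5 moved and 1 turned direction. The coding share of the member peaks in the PDGF-AA list fell from 100% to 62.5% when any overlap with a UTR of some transcript took precedence, and that of the untreated list from 92.3% to 84.6%. The ratio of peaks per kb in giant to other exons of Fat1 in the PDGF-AA list turned from 0.60 to 1.93 when exons from 500 nt counted as giant, and the untreated ratio went from 1.57 to 2.17. The same change took the giant-exon share of the members' coding peaks from 37.5% to 62.5% in the PDGF-AA list and from 58.3% to 75% in the untreated list, within those wide intervals. The others that moved were counts of Cdh2, which went from 1 to 0 untreated peaks without tandem CA runs and from 1 to 0 PDGF-AA peaks at a width of at least 30 nt, so that its difference of 0 became 1 and -1. No replicate could be left out and no paired analysis was possible because peaks were called once per condition. The lists give no reads per peak, so what depth limits is unknown, and an absent peak is not an absent site.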
